A study of Gallus gallus with 12 samples.

Results

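Vasotocin is the avian counterpart of mammalian vasopressin, and this account covers its gene, AVP, and the receptor genes AVPR1A, AVPR1B and OXTR in the hypothalamus of heat-stressed broilers. Probes were assigned to a gene by matching the accession on the array to a table of chicken genes (assembly GRCg7b), which gave 5 probes for these 4 of the 4814 genes named on the array. The array holds 43603 probes in all, and 10185 of them carry a gene name. AVP was selected on its measured values on these same arrays, so its levels are given as a description with no test. The birds were 12 full-sib or half-sib female broilers of the population Anak_40, 56 d of age, all reared at 25°C. The heat-stressed birds (HS) spent 24 h at 34°C. The temperature recovery birds (TR) had the same heat and were then returned to 25°C for another 24 h, and the controls (CL) stayed at 25°C. Each group had 4 birds with 1 single-colour array a bird, numbered within the group (HS1 to HS4, for example).

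Vasotocin is cut from a precursor that also carries a neurophysin, its carrier protein. It is made by magnocellular neurons of the supraoptic and paraventricular nuclei, which release it from the posterior pituitary as the antidiuretic hormone of birds, and by parvocellular neurons that act on pituitary corticotrophs together with corticotropin-releasing hormone. Its receptors are G protein-coupled: the V1a and V1b types signal mainly through Gq and phospholipase C, the V2 type through Gs and cyclic AMP, and OXTR is the receptor of mesotocin, the avian counterpart of oxytocin.

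The 3 groups were on 3 separate slides, 1 for each, so that group and slide cannot be told apart. The HS and TR slides shared a scan day, which the CL slide did not. The lowest signal marked as above background lay between 4.12 and 5.56 on the log2 scale over the arrays, and was highest on HS4. HS4 also had the fewest spots above background (33505, against up to 36852 on the other arrays). The 11 striated muscle genes measured were highest on CL2, and 10 of them were second highest on HS2, as given with their values below. Defining genes of the anterior pituitary were at or near background: GH, FSHB, TBX19, GHRHR, CRHR1 and TRHR were above background on 0 of 12 arrays.

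The AVP gene lies on chromosome 4 of GRCg7b, from 88244479 to 88246085, 2235 bases from OXT, the mesotocin precursor gene (88240333 to 88242243). AVP was measured by 1 probe, A_87_P059286, and no probe matched OXT by accession, so OXT is not reported. The AVP probe was above background on all 12 arrays and saturated on none. All signals below are log2 values of the processed intensity after quantile normalization between arrays.

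AVP signal was high in all HS birds and scattered widely in TR and CL birds. HS1 to HS4 had AVP signals of 16.38, 17.70, 18.38 and 18.71. In TR1 to TR4 the AVP signals were 13.21, 16.97, 13.42 and 10.96. For CL1 to CL4 they were 17.68, 7.68, 13.60 and 10.43. CL1 and TR2 lay among the HS birds, whereas the other TR and CL birds were all below the lowest HS bird. From highest to lowest the birds ran HS4, HS3, HS2, CL1, TR2, HS1, CL3, TR3, TR1, TR4, CL4 and CL2.

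**Figure D1:**
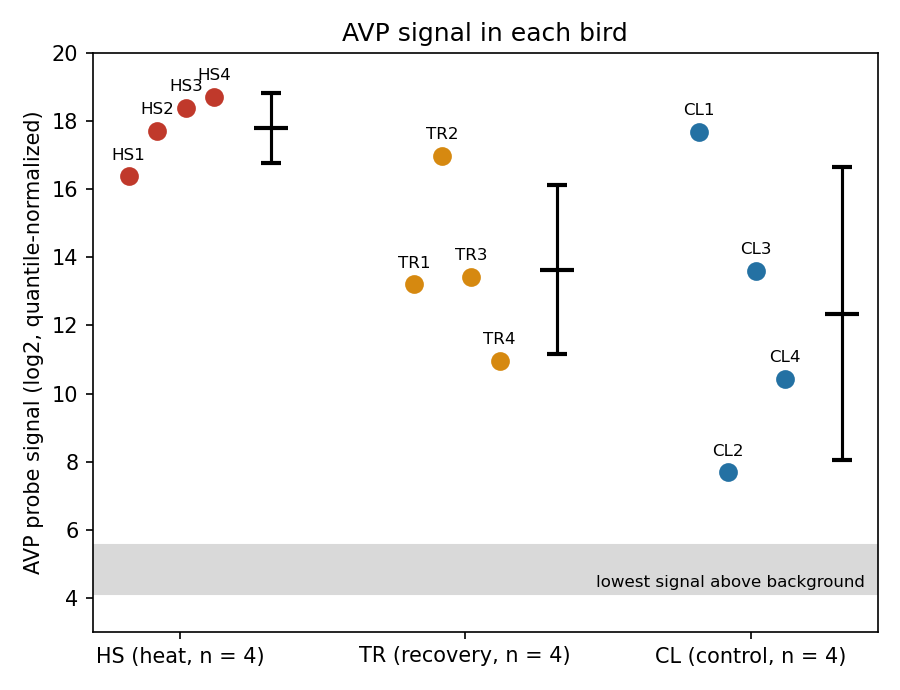
Log2 signal of the AVP probe (y axis) in each of the 4 HS, 4 TR and 4 CL birds (points, with bird names), with the group mean and SD (black bars) and, in grey, the range over arrays of the lowest signal above background. The HS birds sit between 16.38 and 18.71, while the CL birds spread from 7.68 to 17.68.

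The distance between birds of one group differed between groups. HS birds spanned 2.33 log2 units (5.01-fold), TR birds 6.01 (64.6-fold) and CL birds 9.99 (1020-fold). The equality of these spreads was not tested. Over all birds the AVP signal spanned 11.02 log2 units, the 5th widest span of 34735 tested probes with 12 values, whose median span was 0.764. Its SD within groups, 2.93, ranked 15th and compares with a median of 0.207. Before scaling, the processed intensity of the AVP probe was 392352 on HS4, the highest, and 174 on CL2, the lowest.

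Group means of AVP were 17.79 ± 1.03 in HS, 13.64 ± 2.48 in TR and 12.35 ± 4.30 in CL (SD, n = 4 each). The HS mean was 5.44 log2 units above the CL mean (43.5-fold), and 15 of the 16 pairs of an HS and a CL bird had the HS bird higher. That difference was 3.88 without CL2, 4.80 without CL4 and 7.22 without CL1. It was 3.91 without HS2 and CL2, the birds with the highest muscle signals. Between HS and TR, which were scanned on the same day, the difference of means was 4.15 log2 units (17.8-fold), again with HS higher in 15 of 16 pairs. It was 3.26 without TR4 and 5.26 without TR2. The TR mean was 1.29 above the CL mean (2.45-fold), a difference smaller than the SD within groups, and the TR bird was higher in 9 of 16 pairs. Its sign turned without CL2 (-0.26), and it was 0.18 without TR2, 0.65 without CL4, 2.19 without TR4 and 3.07 without CL1. In bulk tissue, fewer vasotocin neurons in a dissected piece and less AVP RNA per neuron cannot be told apart.

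None of the receptors of the list reached the level at which a change could be measured. AVPR1A (chromosome 1, 33422638 to 33427864), the V1a-type receptor, was above background on 0 of 12 arrays, with signals between 2.46 and 2.51 in HS, 2.48 and 2.56 in TR and 2.40 and 2.56 in CL birds. AVPR1B (chromosome 26, 2401577 to 2404297), the V1b-type receptor known from pituitary corticotrophs, had 2 probes, both above background on 0 of 12 arrays. Probe A_87_P009230 gave 2.76 to 3.06 in HS, 2.58 to 2.93 in TR and 2.71 to 2.84 in CL birds. Probe A_87_P050956 gave 2.71 to 2.79 in HS, 2.62 to 2.71 in TR and 2.58 to 3.95 in CL birds, and the highest of these, CL4, was the only array on which its signal was marked as positive and significant. All of these values lie under the lowest signal above background of their array.

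OXTR (chromosome 12, 19462194 to 19466778) was the brightest of the receptor probes, at the edge of detection. Its probe was positive and significant on 12 of 12 arrays but above background on only 2, TR1 and CL3. OXTR signals were 4.51, 3.48, 4.01 and 2.92 in HS1 to HS4. They were 4.69, 3.68, 4.22 and 4.59 in TR1 to TR4, and 4.46, 3.60, 4.64 and 4.15 in CL1 to CL4. The HS birds overlapped with both other groups. OXTR means were 3.73 ± 0.69 in HS, 4.29 ± 0.46 in TR and 4.21 ± 0.46 in CL (SD, n = 4 each). These means rest mostly on values not above background, so the groups are not ranked. AVPR2 (chromosome 1, 28644376 to 28650911), the V2-type receptor, which was looked up beside the 4 genes, was above background on 0 of 12 arrays. It gave 2.73 to 4.03 in HS, 2.63 to 3.41 in TR and 2.70 to 3.42 in CL birds. No fold is given for these receptors, since a signal not above background sets only an upper bound.

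**Figure D2:**
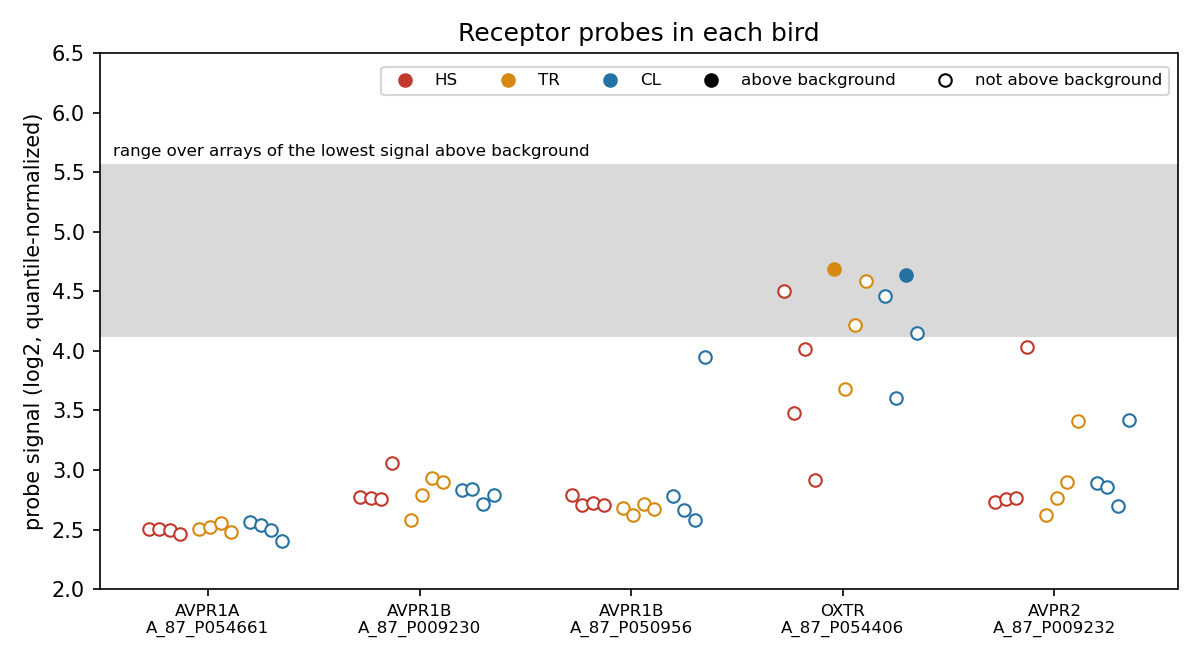
Log2 signal (y axis) of each receptor probe in each bird, by group (colour), filled where the probe was above background. The grey band is the range over arrays of the lowest signal above background (4.12 to 5.56). Only OXTR in TR1 and CL3 is filled.

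Testing was limited to probes above background in all 4 birds of 1 group or more. A called probe is one with p under 0.05 in the limma fit, a false discovery rate (FDR) under 0.15 and a fold change over 1.5. No receptor probe passed the filter on dim probes. Among all probes tested, HS vs. CL had 3.58% called (1.85% with HS higher, 1.73% with HS lower), HS vs. TR 1.84% (1.16% with HS higher, 0.684% with HS lower) and TR vs. CL 0.0945% (0.0458% with TR higher, 0.0487% with TR lower). With no filter on dim probes these shares were 3.09%, 1.72% and 0.0734%, and in each comparison 0 of the 4 receptor probes were called by limma, 0 of them with an unadjusted p under 0.05.

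The genes most like AVP were found by Pearson's r with the AVP probe over the 12 arrays, among tested probes with a gene name and taking the brightest probe of each gene. These values are descriptions without a p, and the arrays share the same normalization. Over all tested probes the median r was -0.07, and 140 probes (0.403%) had r over 0.8. The 10 genes with the highest r were BUB3 (0.93), SOUL (0.91), CALB1 (0.90), MLPH (0.90), CACNA1B (0.90), SST1 (0.89), PRSS3 (0.87), DPF3 (0.86), IL11RA (0.83) and TMEM9 (0.83). Their Spearman's rho with AVP lay between 0.80 for DPF3 and 0.97 for CACNA1B.

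Several of these genes varied as widely as a neuropeptide gene, whereas others moved within less than 1 log2 unit. SOUL, which encodes a heme-binding protein known from chicken retina and pineal gland, spanned 5.56 log2 units. Its signals were 13.96 to 15.66 in HS, 10.68 to 13.50 in TR and 10.10 to 14.15 in CL birds. Both SOUL probes followed AVP (r = 0.91 and 0.92). CALB1, which encodes the calcium-binding protein calbindin, spanned 8.15 log2 units, with signals of 7.92, 8.86, 10.59 and 12.26 in HS1 to HS4. CALB1 signals were 5.92, 8.35, 7.90 and 6.77 in TR1 to TR4, and 9.76, 4.11, 6.40 and 5.75 in CL1 to CL4. The CALB1 probe was above background on 11 of 12 arrays but not on CL2, so its span rests on a value not above background. As with AVP, CL1 was the highest of the CL birds and CL2 the lowest, and TR2 was the highest of the TR birds.

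SST1, the gene of the release-inhibiting peptide somatostatin, had 3 probes, with r of 0.89, 0.90 and 0.90. Signals of its brightest probe were 10.36, 11.61, 12.52 and 14.17 in HS1 to HS4. They were 7.34, 8.47, 9.52 and 7.12 in TR1 to TR4, and 10.11, 5.43, 8.55 and 6.85 in CL1 to CL4. The HS and the CL birds each stood in the same order for SST1 as for AVP, whereas among TR birds TR2 was highest for AVP and TR3 for SST1. CACNA1B, a pore subunit of N-type calcium channels, spanned only 0.83 log2 units with nearly the same ranking (rho = 0.97). BUB3, a spindle checkpoint gene with the highest r, spanned 0.57 log2 units, and its other 3 probes had r of 0.61, -0.09 and 0.63, so that its probes disagreed. PRSS3, a trypsin gene, had 7 probes on the array, only 1 of which was bright enough to be tested.

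When each array was left out in turn, the lowest r among the 10 genes was 0.78, for DPF3, and it stayed between 0.89 and 0.93 for SOUL, 0.87 and 0.92 for CALB1 and 0.86 and 0.94 for SST1. Without CL2 and CL4, the 2 arrays farthest from the AVP median, r was 0.91 for SOUL, 0.84 for CALB1 and 0.83 for SST1, and lowest for DPF3 (0.69). Within groups, after the group means were subtracted, r was 0.93 for SOUL, 0.82 for CALB1 and 0.81 for SST1.

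**Figure D3:**
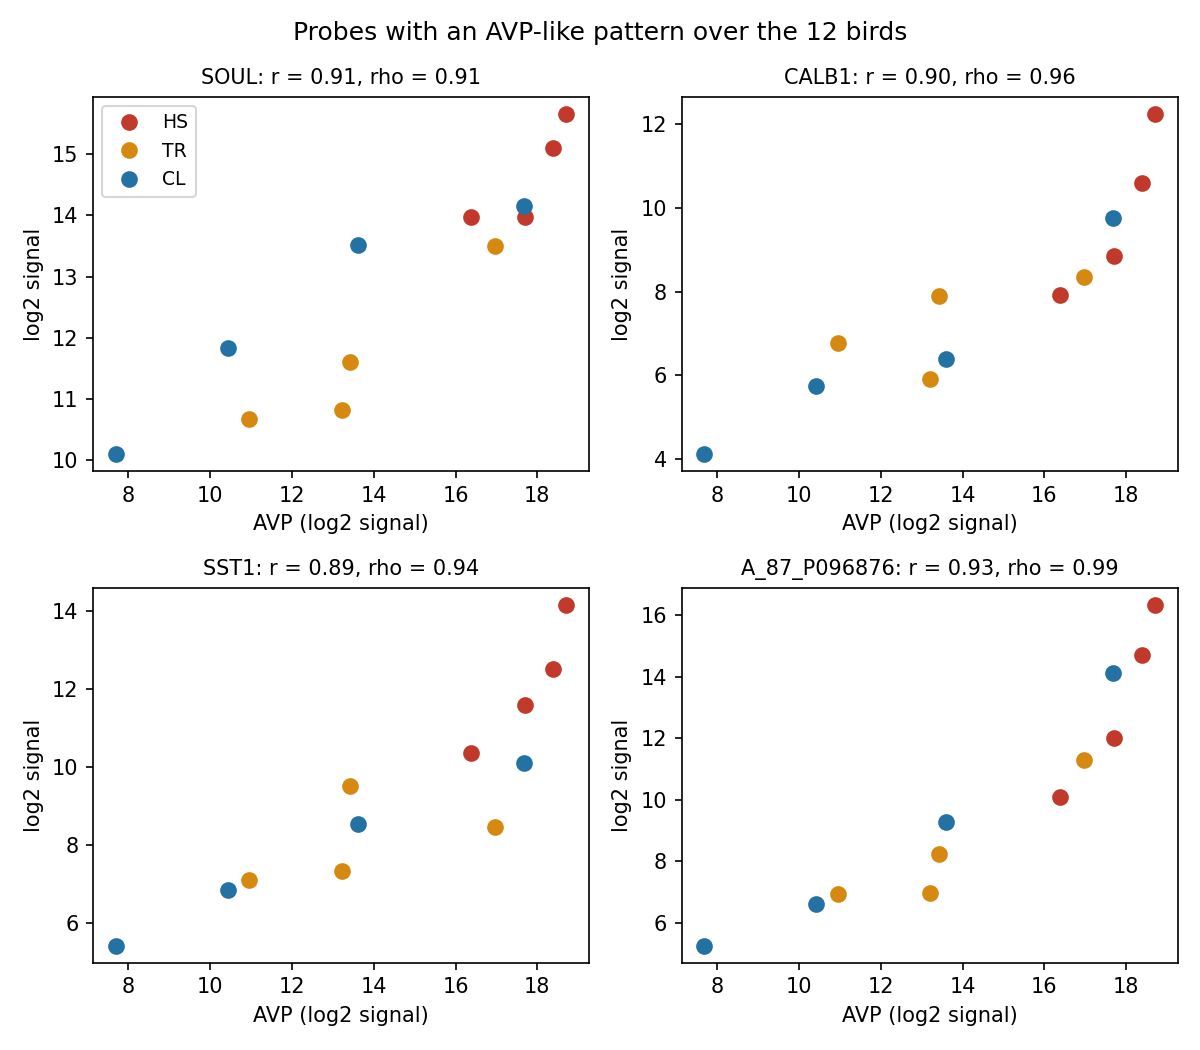
Log2 signal of SOUL, CALB1, SST1 and the unnamed probe A_87_P096876 (y axes) against that of AVP (x axes) in the 12 birds, coloured by group. CL2 is at the lower left and HS4 at the upper right in every panel, with r between 0.89 and 0.93.

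The 5 genes with the lowest r were WDR91 (-0.89), FASN (-0.88), CHIR-B4 (-0.87), HADHA (-0.86) and GRK2 (-0.86). FASN encodes fatty acid synthase and HADHA a subunit of the mitochondrial enzyme complex of fatty acid oxidation. GRK2 encodes a kinase of activated G protein-coupled receptors. Their other probes were weaker, with r of -0.53 and -0.88 for WDR91, -0.75 for FASN, -0.60 to -0.80 for CHIR-B4, -0.56 for both of HADHA, and -0.39 and -0.65 for GRK2. All 5 moved little, with spans of 0.85 for WDR91, 0.65 for FASN, 1.20 for CHIR-B4, 0.44 for HADHA and 0.43 for GRK2. CHIR-B4 belongs to a multigene family of immunoglobulin-like receptors, so its probe may also bind other members.

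Probes with no gene name came closest to AVP in both pattern and width. Probe A_87_P096876 had r = 0.93 and rho = 0.99 with AVP and spanned 11.08 log2 units, and A_87_P096881 had r = 0.93 and rho = 0.97 with a span of 12.77. A_87_P096881 was above background on 11 of 12 arrays, and its lowest value (3.08 on CL2) was not, so its span rests on that value. A_87_P310762 had r = 0.88, rho = 0.97 and a span of 10.46, and was above background on 8 of 12 arrays. Of 41 other probes with a span of 8 log2 units or more, 16 had r over 0.8 with AVP and 18 had a gene name. CL2 was the lowest array for 16 of the 41 and the highest for 12.

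Genes around vasotocin were gathered in lists of its system, precursor processing, magnocellular regulators, receptor signalling, osmosensing and water balance, and coexpressed peptides. Of 84 such genes other than the 4 above, 34 had a named probe, 30 were above background on at least 1 array, and 29 were tested. For HS vs. CL, limma called 3 of 29 as higher in HS birds and 1 as lower (13.8%, against 3.58% of all probes). The median log2 change of the 29 was 0.04, against -0.04 for all probes. In HS vs. TR, 1 of 29 was called, higher in HS (3.45%, against 1.84%), with a median of 0.09 against -0.04. In TR vs. CL, 0 of 29 were called by limma or by the alternative equal-variance test, and 4 had an unadjusted limma p under 0.05. The median r with AVP over the 29 was 0.09, and 5 had r over 0.5.

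Precursor processing was represented by only 3 tested genes, named here for that reason. CPE, the carboxypeptidase of secretory granules, had signals of 12.17 to 14.46 in HS, 11.65 to 12.41 in TR and 11.42 to 12.60 in CL birds, and CHGA, a granule protein, had 6.59 to 10.01 in HS, 5.94 to 9.59 in TR and 5.09 to 7.73 in CL birds. Neither passed the test in HS vs. CL (CPE log2 change 1.01, limma adjusted p = 0.233, and CHGA 1.83, adjusted p = 0.282). FURIN, a convertase of many tissues, gave -0.16 (adjusted p = 0.463). The r with AVP was 0.66 for CPE, 0.59 for CHGA and -0.24 for FURIN.

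Among osmosensing and water balance genes, NPPA was higher in HS than in CL and TR birds, and ACE higher in HS than in CL birds. NPPA, which encodes atrial natriuretic peptide, had signals of 8.98, 8.77, 9.08 and 8.82 in HS1 to HS4. It had 8.51, 8.27, 8.33 and 8.06 in TR1 to TR4, and 8.32, 8.04, 8.31 and 8.33 in CL1 to CL4. The HS birds did not overlap with either group. The log2 change of NPPA between HS and CL birds was 0.66 (SE 0.12, limma adjusted p = 0.0258), and that between HS and TR birds was 0.62 (SE 0.12, adjusted p = 0.0424). The second call was lost without HS3 (0.56) or without TR4 (0.54).

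ACE, the angiotensin-converting enzyme gene, had signals of 8.83 to 9.08 in HS, 8.40 to 9.29 in TR and 7.62 to 8.35 in CL birds, without overlap between HS and CL. Its log2 change in HS vs. CL was 0.90 (SE 0.20, limma adjusted p = 0.0517), and 0.49 by its second probe, which was not called (adjusted p = 0.169). Between HS and TR, ACE was not called (0.22, limma adjusted p = 0.624), the highest bird was TR4, and all TR birds lay above all CL birds (0.67, adjusted p = 0.466, not called). TRPV1, TRPV4, AQP1 and AQP4, the other tested genes of this list, were not called in any comparison, and AGTR1, the angiotensin II receptor gene, was above background on 0 of 12 arrays.

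Of the 9 tested genes of receptor signalling, RGS2 alone was called. RGS2 encodes a protein that shortens Gq signalling. It had signals of 12.71 to 13.35 in HS, 13.25 to 13.79 in TR and 13.25 to 14.24 in CL birds, and HS and CL overlapped by 1 bird of each group. The log2 change in HS vs. CL was -0.68 (SE 0.22, limma adjusted p = 0.127) and -0.77 by its second probe (adjusted p = 0.0509). The call of the first probe was lost without HS3 (-0.76), HS4 (-0.55), CL2 (-0.52) or CL4 (-0.59). It was also lost with array weights (-0.44, limma adjusted p = 0.252), with only the 2 groups in the fit (0.2) and with no filter on dim probes (0.156). The Gq subunit genes GNAQ and GNA11 were not called in any comparison. Of the 5 tested magnocellular regulators, FOS, JUN, CREB1, NR3C1 and RASD1, 0 were called by limma or by the alternative equal-variance test in any comparison, and 1 had an unadjusted limma p under 0.05 in each. JUN, an immediate early transcription factor gene, had signals of 14.62 to 14.82 in HS, 14.89 to 14.99 in TR and 14.89 to 15.13 in CL birds. All HS birds were below the others for JUN, but its log2 change of -0.29 in HS vs. CL (limma adjusted p = 0.0824) stayed under the fold limit. The same held for PRKCA of receptor signalling (-0.37, limma adjusted p = 0.0772). For TRPV4, HS birds were all below CL birds (-0.33, limma adjusted p = 0.0893) but not below TR birds. For GNAQ, HS birds were all above TR birds (0.18, limma adjusted p = 0.29). The share of all probes without overlap was not counted.

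Among the coexpressed peptides, ADCYAP1 was called. It encodes the precursor of PACAP. Its signals were 8.11, 8.04, 9.78 and 10.0001 in HS1 to HS4. They were 4.90, 6.80, 7.22 and 6.56 in TR1 to TR4, and 7.25, 5.34, 3.25 and 7.22 in CL1 to CL4. All HS birds lay above all TR and CL birds. The log2 change of ADCYAP1 in HS vs. CL was 3.22 (SE 0.88, limma adjusted p = 0.0814). This probe was above background on 11 of 12 arrays. CL3, at 3.25, lay under the lowest signal above background of its array (4.21), so the size of the change is uncertain. The log2 change was 2.38 without CL3 and 2.13 with another background correction (normexp), and the call was kept in both. The other 3 probes of ADCYAP1 were above background on only 8 of 12 arrays each, and no change is given for them. Without HS3, HS4 or CL2 the call was lost (2.96, 2.89 and 3.08). CRH, the corticotropin-releasing hormone gene, was above background on 0 of 12 arrays.

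**Figure D4:**
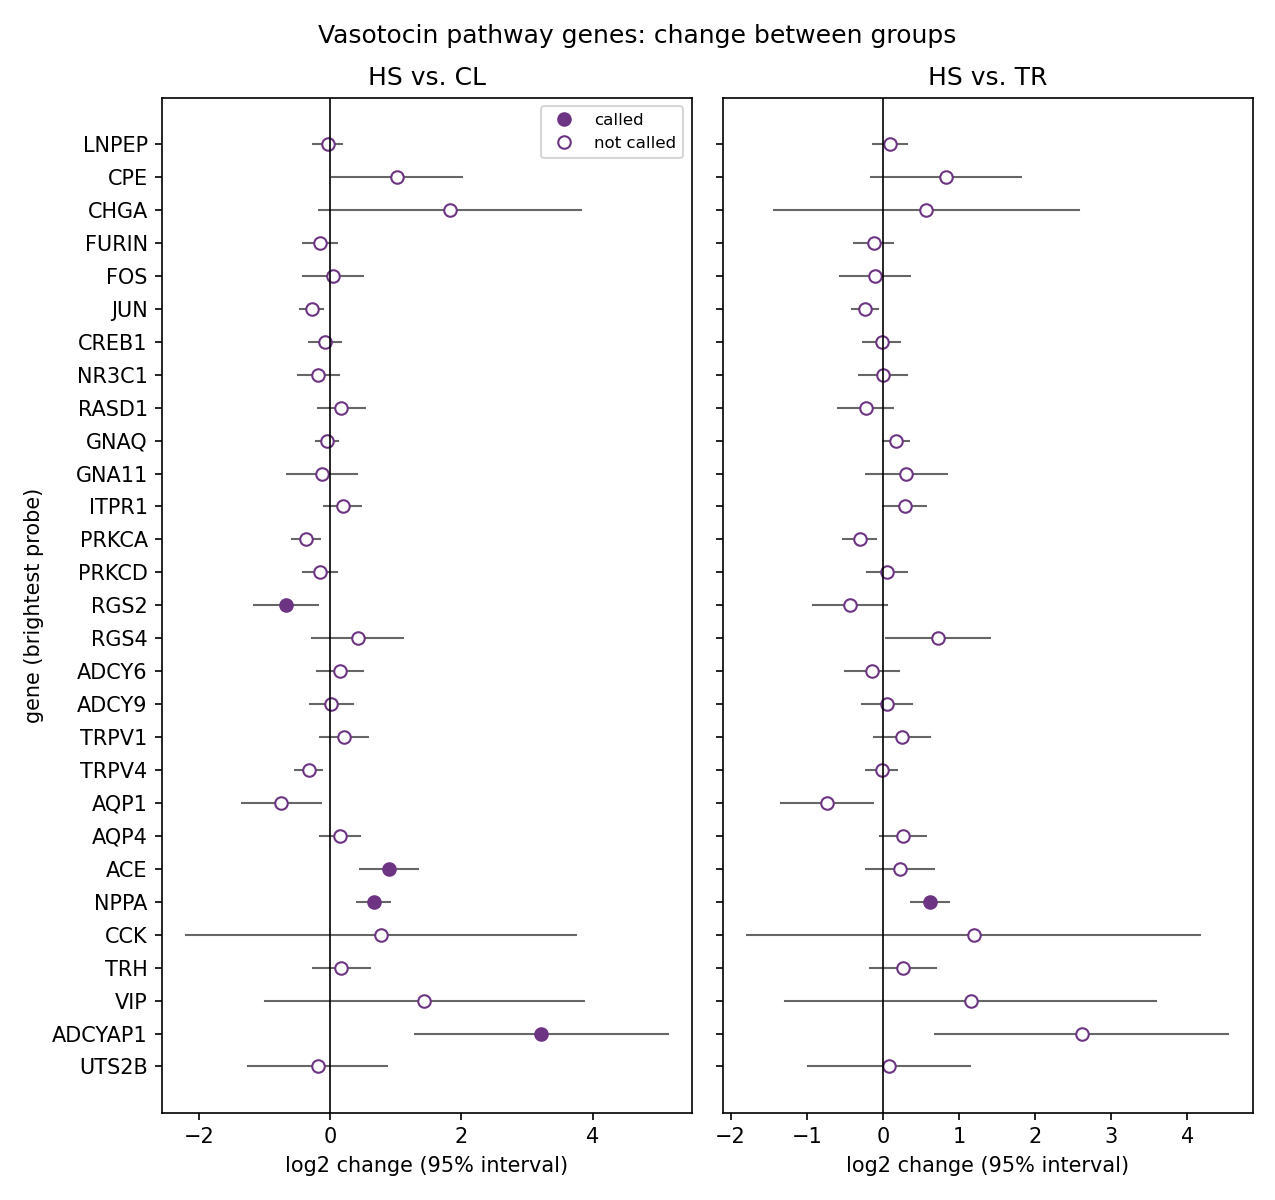
Log2 change (x axis, with 95% intervals from limma) of the 29 tested pathway genes (y axis, brightest probe) in HS vs. CL (left) and HS vs. TR (right), filled where called. Called in HS vs. CL are RGS2 (-0.68), ACE (0.90), NPPA (0.66) and ADCYAP1 (3.22), and in HS vs. TR only NPPA (0.62).

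AVP was next set beside the other neuropeptide genes of the hypothalamus. Of 22 listed genes other than AVP, 12 had a named probe, 11 were above background on at least 1 array and 8 were tested. HS4, the bird with the highest AVP, was the highest bird for all 6 of these genes that were above background on 12 of 12 arrays (CCK, TRH, VIP, SST1, GNRH1 and NPY), against 14.1% of all probes above background on 12 arrays. It was also the highest for the other 5, but GHRH and NPVF were above background on 1 HS array alone and so were counted only because they were high there. The lowest bird was CL2 for 4 of the 11 and CL3 for another 4, although CL3 had the second highest AVP of the CL birds. Of the 8 tested genes, 3 were called as higher in HS than in CL birds (37.5%, against 3.58% of all probes) and 1 as higher in HS than in TR birds (12.5%, against 1.84%). CCK, TRH, VIP and ADCYAP1 were also among the tested pathway genes above, so the call of ADCYAP1 is counted in both places. The median log2 change of the 8 was 1.49 between HS and CL birds and 1.17 between HS and TR birds, against -0.04 for all probes in both. In TR vs. CL, 0 of 8 were called by limma or by the alternative equal-variance test, and 0 had an unadjusted limma p under 0.05, with a median of 0.41 against -0.01.

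The 3 genes called in HS vs. CL were SST1, GNRH1 and ADCYAP1. SST1 differed by 4.43 log2 units between HS and CL (SE 1.03, limma adjusted p = 0.0549) and by 4.05 between HS and TR (SE 1.03, adjusted p = 0.1), with no overlap in either. The call in HS vs. TR was lost without HS3 (3.94), HS4 (3.38), TR1 (3.79), TR2 (4.16) or TR4 (3.72). GNRH1, the gonadotropin-releasing hormone gene, had signals of 6.79 to 8.86 in HS, 6.32 to 7.13 in TR and 5.91 to 6.60 in CL birds. Its log2 change in HS vs. CL was 1.55 (SE 0.37, limma adjusted p = 0.0569), and the call was lost without HS3 (1.46).

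Other peptide genes were not called. NPY, an orexigenic peptide gene, had signals of 10.42 to 12.59 in HS, 8.94 to 11.51 in TR and 7.05 to 10.65 in CL birds (r with AVP 0.67). VIP had 6.81 to 12.46 in HS, 6.59 to 9.06 in TR and 6.57 to 9.37 in CL birds (r = 0.43), with HS4 highest and HS3 next. For TRH the r with AVP was 0.49, for HCRT 0.43 and for CCK only 0.09. CCK had 9.65 in CL2, the bird with the lowest AVP. GAL was above background on 3 HS, 2 TR and 1 CL arrays and was not tested.

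**Figure D5:**
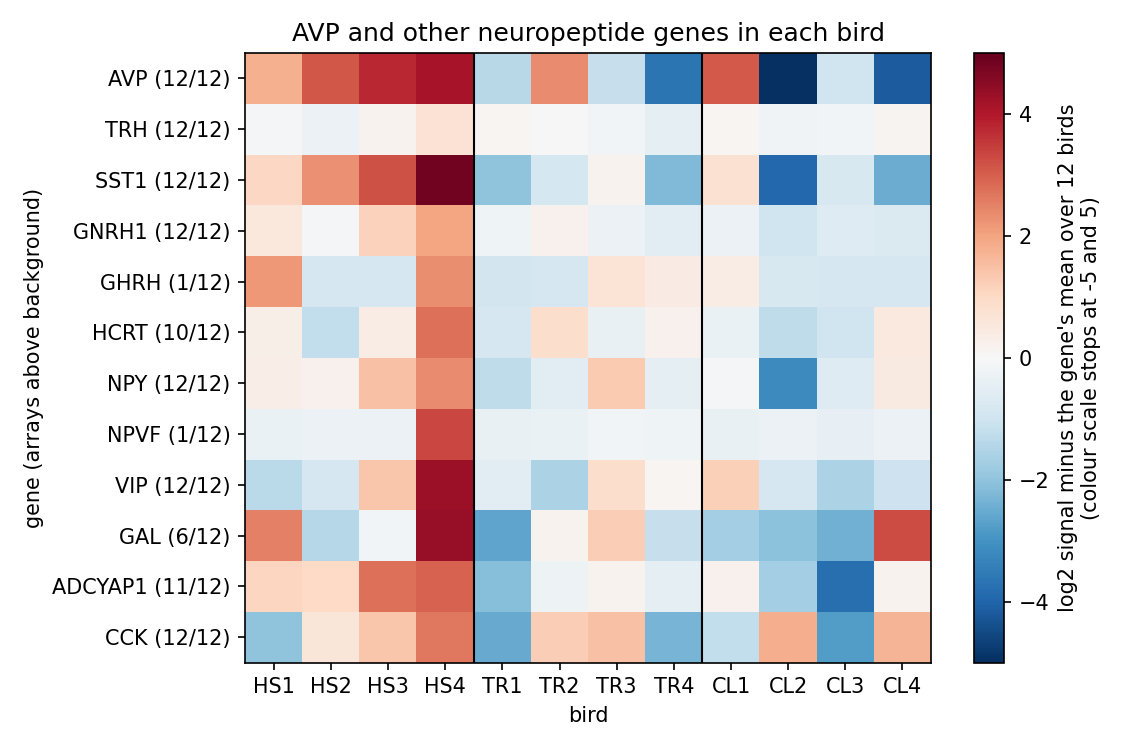
Log2 signal of AVP and 11 other neuropeptide genes (rows, with the number of arrays above background) in each bird (columns), as the difference from each gene's mean over 12 birds, with values below background included. The column of HS4 holds the highest value of every row, including GHRH and NPVF, which were above background on 1 HS array alone.

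Markers of other regions and cell types were set beside the AVP values, and their part in the AVP differences was not tested. For striated muscle, 11 of 16 listed genes had a named probe. All 11 were highest on CL2, the bird with the lowest AVP, against 13.9% of all tested probes. The summed muscle signal was 12.79 to 16.34 in HS, 12.57 to 13.08 in TR and 12.78 to 17.88 in CL birds on the log2 scale. TNNC2, for example, had 16.07 in CL2 and 14.89 in HS2. The AVP signal was 17.70 in HS2 and 7.68 in CL2. Of 8 tested muscle genes, MYH7 was called, lower in HS vs. CL (-0.85, limma adjusted p = 0.0503). TNNT2 was above background on 2 of 12 arrays and MB on 3, so both were counted only through the few arrays where they were high.

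Of 13 listed dopaminergic genes 6 had a named probe and 4 passed the filter on dim probes. Of these, DRD2 was called in both comparisons with HS, in which 3.58% (HS vs. CL) and 1.84% (HS vs. TR) of all probes were called. PITX3 and LMX1B were not called in any comparison. Their log2 changes were -0.19 and 0.18 in HS vs. CL, and -0.26 and 0.10 in HS vs. TR. TH passed the filter only through the HS birds, where it was high, so its values are given with no test and no call. TH, the rate-limiting enzyme of dopamine synthesis, which hypothalamic neurons also make, had 5.04, 6.30, 7.24 and 9.54 in HS1 to HS4, all above background. It was above background in 0 TR birds (2.37 to 3.99) and in 1 CL bird (2.32 to 4.68). In the main processing, with TR at the lowest signal above background of each array, the TH mean was at least 5.31-fold higher in HS than in TR birds. This bound does not hold for every background correction: the difference with normexp, given below, was smaller. DRD2, a dopamine receptor gene, had 6.88 to 7.12 in HS, 5.76 to 6.12 in TR and 6.09 to 6.51 in CL birds (log2 change 0.72 from CL, limma adjusted p = 0.0183, and 0.997 from TR, adjusted p = 0.0039). The r with AVP was 0.67 for TH, 0.49 for DRD2, -0.38 for PITX3 and 0.79 for LMX1B. The summed dopaminergic signal, which includes TH, was 8.93 to 10.21 in HS, 8.44 to 8.68 in TR and 8.29 to 9.02 in CL birds. On HS4, TH (9.54) was the highest of the summed genes, so the sum is not separate from the TH values.

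Of 17 listed pituitary genes 11 had a named probe and 4 were tested, and 0 were called by limma in any comparison. An unadjusted limma p under 0.05 was found for 1 gene between HS and CL, 3 between HS and TR and 2 between TR and CL, and 0 were called by the alternative equal-variance test. The summed signal was 9.74 to 10.53 in HS, 9.91 to 10.68 in TR and 10.11 to 10.56 in CL birds. PRL was above background on 9 of 12 arrays and TSHB on 1. For the telencephalon, 3 genes were tested and DLX5 was called higher in HS vs. TR (2.63, limma adjusted p = 0.13), a call lost without HS3 (2.42), HS4 (2.01), TR1 (2.42), TR3 (2.55), TR4 (2.39) or CL3 (2.63). Of 7 tested astrocyte, tanycyte and pituicyte genes, 0 were called by limma or by the alternative equal-variance test in any comparison, and an unadjusted limma p under 0.05 was found for 1, in TR vs. CL. GFAP, the defining gene of astrocytes, had 16.97 to 18.29 over all birds. Of 4 tested thalamus genes, 0 were called by limma or by the alternative equal-variance test, and 1 had an unadjusted limma p under 0.05, in HS vs. CL. Among hypothalamic region genes, 6 were tested and BSX was called higher in HS vs. TR (0.65, limma adjusted p = 0.0746), a call lost without HS1 (0.54), TR3 (0.57) or TR4 (0.62). Of 4 tested choroid plexus genes, limma called 1 in HS vs. CL, MSX1, as lower in HS (-0.66, limma adjusted p = 0.146), a call lost in 11 of the 12 fits that left out 1 array (log2 changes -0.43 to -0.77), and kept without HS1. AQP1 gave -0.75 and TTR 0.93 in HS vs. CL, neither of them called (limma adjusted p = 0.161 and 0.534). OTX2 was above background on 4 HS, 3 TR and 2 CL arrays, with signals of 5.32 to 8.53 in HS, 4.50 to 6.40 in TR and 3.57 to 5.85 in CL birds, and FOLR1 on 0 of 12 arrays.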

How the data were processed

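Hypothalamus RNA of 12 birds was measured on 1-colour Agilent arrays. Feature Extraction was run by the authors on the scans. The deposited scanner files give a processed intensity per spot and marks for background, outliers and saturation. The authors also deposited a log2 table of quantile-normalized values, used here only as an alternative after its entries were matched to spots by value. Some label fields name another tissue (spleen), sex and age and a viral infection. The titles, protocols and methods give hypothalamus of female broilers, which was followed.

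Processed intensities were taken to log2, outlier spots were left out (472 spot values), and quantile normalization was run without control spots before averaging by probe. The filter on dim probes kept 34929 probes. Tests used limma 3.58.1 in R 4.3.3, with 3 groups in 1 fit and Benjamini-Hochberg adjustment over all tested probes. Calls used the limits that the methods give, as named in the report. Python 3.11.15 with pandas 2.3.3, numpy 2.4.6 and matplotlib 3.10.9 made the summaries and figures. The fit was tested on simulated data. Arrays have no counting depth, and their number limits the precision. The median signal over background was 11.8 to 17.3.

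Probes were named by accession (10185 probes, 4814 genes), and the brightest probe stands for a gene unless others are named. The members, the lists and the rule for named genes were chosen with earlier results of these data known. Named are all probes of the 4 genes, OXT and AVPR2, called genes of each pathway list, the 10 genes with the highest and the 5 with the lowest r with AVP, and members of reported marker lists. Precursor processing genes, wide unnamed probes, and the uncalled genes JUN, PRKCA, TRPV4 and GNAQ were singled out after their values were seen. A sum over a list is the log2 of the summed linear signals. The alternatives run were 75th percentile scaling, normexp (offset 50), values from the deposited table, other filters, outlier spots kept, FDR under 0.05, 2 groups only, the replicate block, array weights, an equal-variance t-test of each probe (a t-test is stated in the methods for qRT-PCR only) and each array left out. A fit without HS2 and CL2 was chosen after seeing the data.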

Additional observations from a re-analysis of the deposited data

Results flagged for a closer look

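In 75 groups of 4 birds (the probes of the receptors and AVP, the called pathway genes and the 15 genes with the highest or lowest r with AVP, each in HS, TR and CL), 7 had 1 bird set apart from the others beyond Dixon's 95% limit for 4 values, which chance passes in about 1 in 20 groups. In 3 of the 7 the probe was one of a receptor and not above background. The AVPR1B probe A_87_P009230 had 3.06 on HS4, against 2.76 to 2.78 on the other HS arrays. The AVPR1B probe A_87_P050956 had 3.95 on CL4, against 2.58 to 2.78 on the other CL arrays. AVPR2 had 4.03 on HS4, against 2.73 to 2.77 on the other HS arrays.

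The other 4 were bright probes. NPPA had 8.04 on CL2, against 8.31 to 8.33 on the other CL arrays. IL11RA had 12.41 on HS4, against 12.27 to 12.29 on the other HS arrays, CHIR-B4 had 9.92 on CL1, against 10.51 to 10.56 on the other CL arrays, and HADHA had 12.60 on TR3, against 12.56 to 12.57 on the other TR arrays.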

How the results depend on the processing

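AVP stayed higher in HS than in CL and in TR under the scalings, background correction, deposited table, kept outlier spots and medians that were run, with log2 differences of 5.26 to 6.03 for CL and 4.0012 to 4.73 for TR. With each array left out they ranged from 3.88 to 7.22 and from 3.26 to 5.26. For TR vs. CL the difference ranged from -0.26 to 3.07, and it was -0.26 both without CL2 and without HS2 and CL2. The mean of all AVP probes was not run, since AVP has 1 probe. No receptor probe passed the filter on dim probes, so the alternatives that kept this filter could not call one. Only the fits with other filters could, and receptor probes called were 0 in those.

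Pathway genes called in HS vs. CL (4) ranged from 2 to 5 with 1 array left out, with 2 called without HS3 and 2 without CL2. They were 2 by an equal-variance t-test, 2 without HS2 and CL2, and 1 with FDR under 0.05. In HS vs. TR (1) they ranged from 0 to 2 with 1 array left out, and were 2 with only the 2 groups compared and 3 with array weights. The cause was not tested. In TR vs. CL they stayed at 0.

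Same-numbered birds did not pair: their deviations from the group means correlated between -0.15 and 0.37, and 3 of 12 arrays were nearest to their own number. With the replicate block the called pathway genes numbered 3 for HS vs. CL, 1 for HS vs. TR and 0 for TR vs. CL. The calls lost were those of RGS2 in HS vs. CL (adjusted p = 0.175) and of SST1 (0.157) and DLX5 (0.209) in HS vs. TR. NPPA fell under the fold limit with normexp (0.55 for HS vs. CL, 0.52 for HS vs. TR), as did DRD2 in HS vs. CL (0.45) and BSX in HS vs. TR (0.51). Normexp also ended the calls of DLX5 (adjusted p = 0.157) and MSX1 (0.2). For TH, given with no test, normexp gave log2 differences of 1.87 in HS vs. TR and 1.62 in HS vs. CL, against 4.24 and 3.56. The first is below the bound of 2.41 log2 units (5.31-fold) found in the main processing. The equal-variance t-test with the same adjustment kept the calls of NPPA, ACE and DRD2, and ended those of RGS2, ADCYAP1, SST1, GNRH1, MYH7, BSX, DLX5 and MSX1. With FDR under 0.05, the calls of NPPA and DRD2 alone among these genes were kept. Signals near background limit what can be said of the receptors.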
